A study of Mus musculus with 10 samples.

Results

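Matrix metalloproteinases and the genes that restrain them were examined in RNA-seq of whole lung from 10 mice. The set comprised 10 genes of the 24394 gene symbols in the table, picked by symbol: the matrix metalloproteinases (MMPs) Mmp2, Mmp3, Mmp11, Mmp14 and Mmp19, the tissue inhibitors of metalloproteinases (TIMPs) Timp1, Timp2 and Timp3, and the related proteinases Adam33 and Adamts1. All were present, as 15 of the 66548 transcript rows. The mice were female BALB/c animals without any engineered allele. Saline mice (n = 3) were given saline only. OVA mice (n = 3) were sensitised by intraperitoneal ovalbumin with alum, challenged with ovalbumin through the nose, and dosed orally with vehicle. Herb mice (n = 4) went through the same ovalbumin protocol and were dosed orally with an extract made in ethanol from the seeds of Descurainia sophia (DSE). The methods do not mention an oral vehicle for the Saline mice, so a difference between OVA and Saline covers ovalbumin, alum and vehicle together, and alum and ovalbumin are shared by OVA and Herb. The labels do not say that RNA of several mice was pooled.

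MMPs are zinc-dependent proteinases that cut collagens, elastin, laminins and other components of the extracellular matrix, and they are made as inactive precursors. TIMPs bind to the active site of MMPs and block it, so the level of a proteinase is usually read beside that of its inhibitors. In the lung, most MMPs and TIMPs are made by fibroblasts, smooth muscle, epithelium and, during inflammation, by macrophages and neutrophils, and Adam33 is known as a gene linked to asthma susceptibility.

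Values are FPKM (fragments per kilobase of a transcript, relative to all mapped fragments), and the rows of a gene were summed. A gene was tested if its mean was at least 1 FPKM, and a gene is said to rise or fall where limma, fitted over all 11205 such genes on log2(FPKM + 1), gave an adjusted p under 0.05. Log2 fold changes on this scale understate the change of low genes. Of the set, 7 genes reached that level and 3 (Mmp11, Mmp14 and Adam33) did not. The libraries held an estimated 14900000 to 29500000 mapped fragments. Protein-coding rows took up 18.5% to 21.3% of the summed FPKM in Saline, 3.36% to 4.68% in OVA and 8.44% to 13.6% in Herb. Most genes also had lower FPKM in OVA, and the cause of this was not tested. The median log2 fold change over all genes tested was -0.75 in OVA vs. Saline, 0.48 in Herb vs. OVA and -0.27 in Herb vs. Saline. After each library was rescaled to a common 75th percentile these medians were 0.076, 0.014 and 0.092, and for the set the rescaled value is given where it changes a call or a direction. For the lists of other genes it is said which of the calls named were lost after rescaling. Markers of alveolar cells were found in all libraries, with the surfactant protein gene Sftpc at 210 FPKM or more in each, and their summed level was 3713 to 4795 FPKM in Saline, 406 to 832 FPKM in OVA and 1044 to 2127 FPKM in Herb. Of 8 eosinophil markers listed, 3 were tested, Ear1, Ear2 and Siglecf. All 3 fell in OVA vs. Saline, as did 57.9% of all genes, and Siglecf also marks alveolar macrophages. Prg2 and Ear6, which were not tested, were at 0 in all Saline libraries but not in all OVA libraries. The study counted more eosinophils in lavage fluid of OVA mice than of saline mice, so these markers are not read as eosinophil numbers. In whole lung, fewer cells of a type and less RNA per cell cannot be told apart.

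The promoters of the set differed in the short motifs they held. Promoter sequence (250 bases before to 50 after the annotated start, RefSeq, GRCm38.p6, the assembly behind mm10) was matched for 7 of the 10 genes. Mmp2, Mmp19 and Adam33 had no entry. The letters TGAGTCA, a consensus site of the AP-1 factors that are known to drive Mmp3, were searched on both strands and are found in 5.20% of the 32851 promoters. Among the 7 matched genes, Mmp3 alone held them, with the first base 46 bases before its start. TATAAA, the letters of a TATA box, is found in 13.6% of promoters. It occurred in Mmp3, 7 bases before the start, and in Adamts1, 32 bases before it. AGGAAG, a core letter run of ETS factors, is found in 35.4% of promoters and occurred in Mmp3, Mmp14, Timp1 and Timp3. The AP-1 and TATA letters do not overlap each other. The windows below are shown because Mmp3 and Adamts1 both fell in OVA in the values as deposited. Both held the TATA letters, and Mmp3 held the AP-1 letters as well. Timp2 and Timp3 also fell and held neither, and the fall of Adamts1 was lost after rescaling (limma adjusted p = 0.311). A link between letters and falls was not tested. Capitals mark the motif.
Mmp3, AP-1 letters, chr9:7445765-7445794, plus strand: ggaagcaattaTGAGTCAgttttcgggtga
Adamts1, TATA letters, chr16:85803127-85803156, minus strand: tcctatgtggcTATAAAggggcggccgggg
A match describes the letters only.

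**Figure D1:**
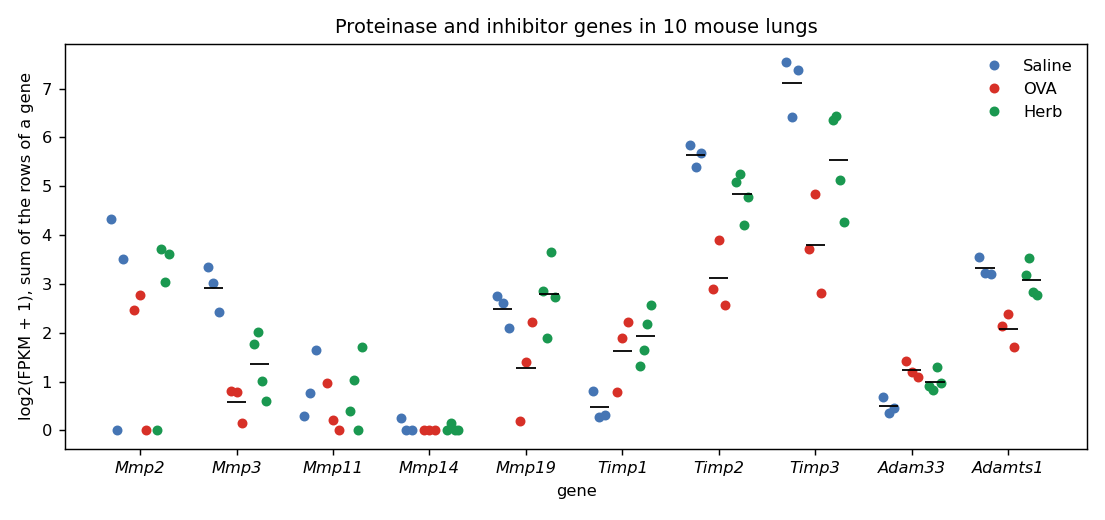
Level of each gene as log2(FPKM + 1) on the y axis, with 1 point per library and the genes on the x axis. Saline (n = 3), OVA (n = 3) and Herb (n = 4) are coloured, and the black line is the mean of a group, drawn only for genes that no library lists at 0. Timp2 and Timp3 lie above the other genes in Saline, the OVA points of Mmp3, Timp2, Timp3 and Adamts1 lie below all Saline points, and Mmp2 has 1 library at 0 in each group.

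In lungs of OVA mice Timp2, Timp3 and Mmp3 were lower and Timp1 and Adam33 higher than in Saline mice, in each case also relative to the 75th percentile of the library. In Herb mice the mean levels of Timp2, Timp3, Mmp19 and Adamts1 were between 2.30 and 3.62 times those of OVA mice, calls that were all lost after rescaling, and Timp1 and Mmp3 differed from Saline in the values as deposited. Timp2 and Timp3 were the most abundant members. In Saline, Timp3 had a mean of 145 FPKM and Timp2 of 49.2 FPKM, and neither overlapped the gene next to it in order. Mmp2, Adamts1, Mmp3 and Mmp19 followed with overlapping ranges and means from 4.72 to 9.84 FPKM, and Mmp11, Adam33 and Timp1 with means from 0.406 to 1.02 FPKM. Timp1 was thus the ninth of the 10 genes in Saline. In OVA it was the fifth, with a mean of 2.37 FPKM, and its range overlapped those of Adamts1 above and Mmp19 below it. In Herb it was the sixth with 3.03 FPKM.

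Timp3 (chromosome 10, 86300412 to 86349505) encodes an inhibitor that stays bound to the extracellular matrix and also acts on ADAM and ADAMTS proteinases. It had 185, 84.8 and 165 FPKM in Saline mice, 12.1, 27.9 and 6.06 in OVA mice and 80.7, 85.4, 33.8 and 18.4 in Herb mice. Every OVA library was below every Saline library, and the Herb libraries spread over both, with replicate 4 inside the OVA range. Between OVA and Saline, Timp3 fell, its log2 fold change being -3.32 (SE 0.68, adjusted p = 0.00226 in limma), or 0.106 times the Saline mean. Of all genes tested, 0.7% had a lower value. The fall remained after rescaling, at -2.21 (limma adjusted p = 0.0225), but its call was lost with quantile normalization (limma adjusted p = 0.0729). Timp3 rose in Herb vs. OVA by 1.75 (SE 0.63, adjusted p = 0.0484 in limma), and after rescaling the difference was 1.11 (limma adjusted p = 0.263), not past the threshold. The rise in Herb also did not pass in any of the fits that left out a library other than OVA replicate 2 and Herb replicate 4. Herb vs. Saline gave -1.57 (SE 0.63, adjusted p = 0.096 in limma). Timp3 lies within the span of Syn3, a gene listed at a mean of 0.879 FPKM, and it was not stated whether strand was used in counting.

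Timp2 (chromosome 11, 118301061 to 118355411) encodes the inhibitor that, with Mmp14, also takes part in the activation of the Mmp2 precursor. It had 56.4, 41.0 and 50.3 FPKM in Saline mice, 6.39, 13.8 and 4.89 in OVA mice and 32.9, 37.1, 17.6 and 26.4 in Herb mice. The 3 groups did not overlap, with OVA lowest and Saline highest. The log2 fold change was -2.53 in OVA vs. Saline (SE 0.37, adjusted p = 0.000386 in limma), which was -1.45 after rescaling (limma adjusted p = 0.0064). Herb exceeded OVA by 1.72 (SE 0.34, adjusted p = 0.00744 in limma). This became 1.11 after rescaling and missed the threshold (limma adjusted p = 0.0747), although the unadjusted p was 0.00419. Herb vs. Saline gave -0.81 (SE 0.34, adjusted p = 0.111 in limma). No Timp2 call in OVA vs. Saline was lost in any of the alternatives computed.

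Timp1 (chromosome X, 20870166 to 20874737) encodes a soluble inhibitor known to be induced in inflamed tissue. Unlike Timp2 and Timp3 it was low in Saline, at 0.760, 0.217 and 0.241 FPKM. OVA libraries were at 0.714, 2.73 and 3.66 FPKM and Herb libraries at 1.496, 2.116, 3.55 and 4.96 FPKM. All Herb libraries exceeded all Saline libraries, whereas OVA replicate 1 lay just under Saline replicate 1. Timp1 rose in OVA vs. Saline, by 1.16 in log2 terms (SE 0.42, adjusted p = 0.0358 in limma), and after rescaling by 1.74 (limma adjusted p = 0.0148). Of all genes tested, 98.8% had a lower value in the fit of the deposited values. The call was lost without a filter on low values (limma adjusted p = 0.063) and without any single one of Saline replicates 2 and 3 and OVA replicates 2 and 3 (limma adjusted p from 0.0925 to 0.122). In Herb vs. Saline it rose by 1.46 (SE 0.39, adjusted p = 0.0272 in limma), a call lost without Saline replicate 2 or 3 or Herb replicate 3 or 4 (limma adjusted p from 0.0644 to 0.0895). Herb and OVA differed by 0.30 (SE 0.39, adjusted p = 0.554 in limma) and -0.15 after rescaling.

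The Timp1 values come from 3 rows of the same length, 883 bases, and the rows replaced one another between libraries. NM_011593 held 54.0% of the FPKM of the gene and was listed above 0 in 5 libraries, NM_001044384 held 37.9% and was above 0 in all 10, and NM_001294280 held 8.15% and was above 0 in 2. In OVA replicate 3 the gene was carried by NM_011593, at 3.62 FPKM, and in Herb replicate 3 by NM_001044384, at 3.55 FPKM. NM_011593 on its own gave 0.75 in OVA vs. Saline (SE 0.73, adjusted p = 0.437 in limma over the 30194 rows tested), so the rise of Timp1 was seen in the sum only. Of the 6 other rows tested, 5 were the sole row of their gene, and the Mmp19 row NM_021412 gave -1.12 in OVA vs. Saline. Timp1 lies within the span of Syn1, which was listed at a mean of 0.476 FPKM, above the Timp1 level of 2 Saline libraries, and reads of overlapping genes could not be separated here.

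**Figure D2:**
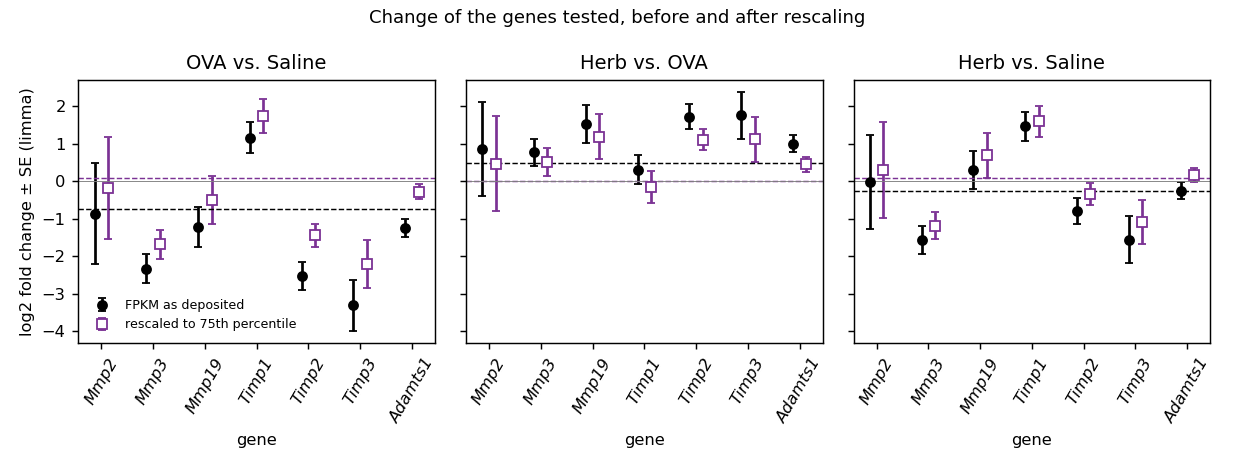
Log2 fold change with its SE on the y axis for the 7 genes tested, in the 3 comparisons. Black circles are FPKM as deposited, purple squares are values after rescaling to a common 75th percentile, and dashed lines of the same colours are the medians over all genes tested. Timp1 lies above 0 and Mmp3, Timp2 and Timp3 below 0 in OVA vs. Saline in both versions, and the error of Mmp2 is the widest of the 7.

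Of the MMPs, Mmp3 had the clearest difference. Mmp3 (chromosome 9, 7445822 to 7455975) encodes stromelysin 1, which cuts proteoglycans, fibronectin and laminin and activates other MMP precursors. It had 9.11, 7.06 and 4.38 FPKM in Saline mice, 0.758, 0.716 and 0.115 in OVA mice and 2.39, 3.05, 1.03 and 0.523 in Herb mice. All OVA and Herb libraries lay below all Saline libraries, and Herb replicate 4 lay within the OVA range. The fall in OVA vs. Saline was -2.34 (SE 0.39, adjusted p = 0.000761 in limma), to 0.0774 times the Saline mean, and -1.69 after rescaling (limma adjusted p = 0.00911). It passed in every alternative computed. Herb vs. OVA gave 0.77 (SE 0.37, adjusted p = 0.113 in limma), and without Herb replicate 4 it was 1.02 (limma adjusted p = 0.0406). Herb vs. Saline gave -1.57 (SE 0.37, adjusted p = 0.0175 in limma), which lost its call after rescaling, at -1.19 (limma adjusted p = 0.0583), and without Saline replicate 1 or 2.

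Mmp19 (chromosome 10, 128790910 to 128800827) encodes a proteinase of basement membrane components. It had 5.76, 5.14 and 3.26 FPKM in Saline mice, 0.137, 1.65 and 3.65 in OVA mice and 6.21, 2.72, 11.7 and 5.64 in Herb mice. OVA overlapped both other groups through its replicate 3. OVA vs. Saline gave -1.22 (SE 0.54, adjusted p = 0.0771 in limma), and without OVA replicate 3 -1.69 (limma adjusted p = 0.0228). Mmp19 rose in Herb vs. OVA by 1.52 (SE 0.51, adjusted p = 0.0371 in limma). After rescaling this was 1.18 (limma adjusted p = 0.241), and it failed to pass without Saline replicate 2, OVA replicate 1 or 2, or Herb replicate 1, 3 or 4 (limma adjusted p from 0.0507 to 0.136). Row NM_021412 held 91.6% of the FPKM of Mmp19. Tmem198b overlaps the end of the gene and was listed at a mean of 0.660 FPKM, above the Mmp19 value of OVA replicate 1.

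Mmp2 (chromosome 8, 92827290 to 92853421) encodes gelatinase A, which cuts denatured collagen and type IV collagen. The table lists it at 19.1, 0 and 10.5 FPKM in Saline mice, 4.54, 5.84 and 0 in OVA mice and 0, 12.2, 7.27 and 11.2 in Herb mice. A single library in each group was at 0, while the others were at 4.54 FPKM or more. No comparison passed, with -0.87 in OVA vs. Saline (SE 1.34, adjusted p = 0.597 in limma) and 0.85 in Herb vs. OVA (SE 1.25, adjusted p = 0.603 in limma).

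The zeros of Mmp2 were mirrored in a row next to it. The table holds 31605 assembled transcript models that carry neither a symbol nor coordinates, and the row directly before Mmp2 is one of them. That model was at 9.73 FPKM in Saline replicate 2, at 2.76 FPKM in OVA replicate 3 and at 8.95 FPKM in Herb replicate 1, which are the 3 libraries that list Mmp2 at 0. In the other 7 libraries it was at 0.389 FPKM or less. Timp3 is followed by a pair of such models, with a sum of 125 FPKM in Saline replicate 2 and of 16.9 FPKM in Herb replicate 4, and at 0 in the other 8 libraries. Both are libraries in which Timp3 was the lowest of its group. The models were tied to these genes by their place in the table alone, after their values had been seen.

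**Figure D3:**
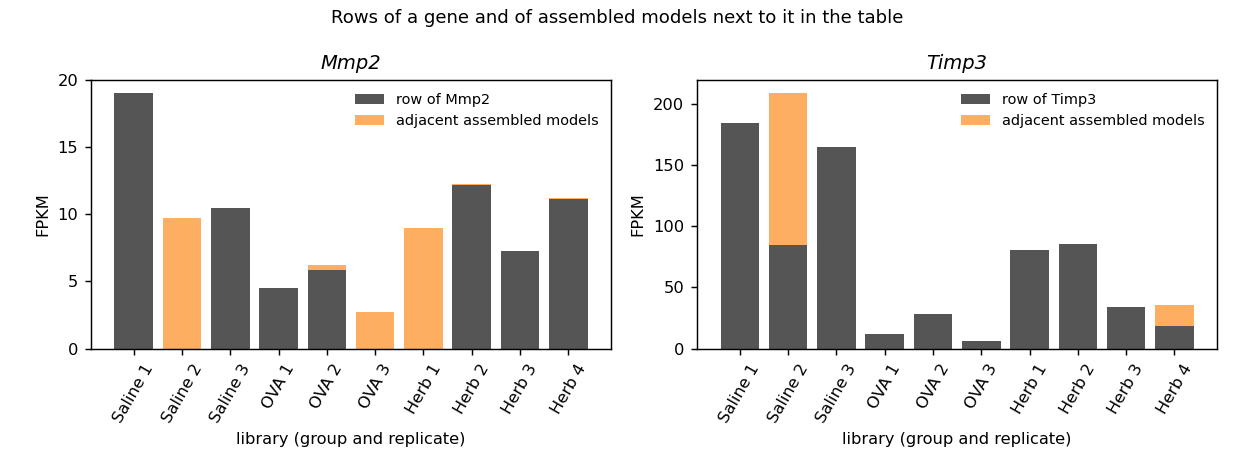
FPKM of Mmp2 (left) and Timp3 (right) in each library on the y axis, as grey bars, with the FPKM of the adjacent assembled models stacked on top in orange. Libraries are on the x axis by group and replicate. The model next to Mmp2 fills the 3 libraries where Mmp2 is listed at 0, and the models next to Timp3 are above 0 in Saline 2 and Herb 4 only.

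With the models added, Mmp2 had 19.1, 9.73 and 10.5 FPKM in Saline mice, 4.54, 6.23 and 2.76 in OVA mice and 8.95, 12.2, 7.27 and 11.3 in Herb mice. OVA then lay below both other groups without overlap, and Saline and Herb overlapped. The log2 fold change was -1.35 in OVA vs. Saline (SE 0.31, adjusted p = 0.00472 in limma) and 1.02 in Herb vs. OVA (SE 0.29, adjusted p = 0.022 in limma). After rescaling both missed the threshold, at -0.34 (limma adjusted p = 0.386) and 0.44 (limma adjusted p = 0.335). In OVA vs. Saline, Timp3 with its models fell by 3.75 on the log2 scale (limma adjusted p = 0.000343; -2.64 and adjusted p = 0.00345 after rescaling). Its Herb vs. Saline difference then passed, at -1.77 (SE 0.50, adjusted p = 0.0317 in limma), but not after rescaling, at -1.30 (limma adjusted p = 0.0817).

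Mmp11 and Mmp14 did not reach a mean of 1 FPKM. Mmp11 (chromosome 10, 75923221 to 75932502), stromelysin 3, had 0.235, 0.702 and 2.117 FPKM in Saline mice, 0.948, 0.166 and 0 in OVA mice and 0.313, 1.04, 0 and 2.28 in Herb mice. The ranges of the 3 groups overlapped. For Mmp11, 3 fragments correspond to 0.0445 to 0.088 FPKM at the estimated depths. Only the 2 libraries that list Mmp11 at 0 were at or under that value. Mmp14 (chromosome 14, 54431598 to 54442456), a membrane-bound MMP that activates the Mmp2 precursor, was listed at 0.196 FPKM in Saline replicate 1, at 0.113 FPKM in Herb replicate 2 and at 0 in the other 8 libraries. For Mmp14, 3 fragments correspond to 0.0392 to 0.0776 FPKM at the estimated depths, a value that covers counting error only. An exact 0 in this table can be a failed estimate, since Gapdh, which nearly all cells use, was listed at 0 in 9 of the 10 libraries, so nothing is read from the zeros of Mmp14.

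Adam33 and Adamts1 went in opposite directions in OVA. Adam33 (chromosome 2, 131050819 to 131063814) encodes a membrane-bound proteinase of mesenchymal cells. It had 0.611, 0.282 and 0.369 FPKM in Saline mice, 1.68, 1.29 and 1.12 in OVA mice and 0.873, 0.774, 1.45 and 0.958 in Herb mice. All OVA and all Herb libraries exceeded all Saline libraries, and OVA and Herb overlapped. The mean in OVA was 3.24 times that in Saline, and the exact permutation test gave p = 0.1, the smallest that 3 against 3 libraries allow. In the fit without a filter on low values, in which Adam33 could be tested, it rose by 0.73 in OVA vs. Saline (SE 0.16, adjusted p = 0.00604 in limma) and gave 0.50 in Herb vs. Saline (SE 0.15, adjusted p = 0.061 in limma). Divided by the 75th percentile of its library, Adam33 was between 0.0306 and 0.0658 in Saline, between 0.268 and 0.457 in OVA and between 0.104 and 0.250 in Herb, where the 3 groups did not overlap. Its reads were assigned to NM_033615 alone of its 2 rows.

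Adamts1 (chromosome 16, 85793827 to 85803113) encodes a secreted proteinase that cuts the proteoglycans versican and aggrecan. It had 10.8, 8.38 and 8.15 FPKM in Saline mice, 3.42, 4.21 and 2.28 in OVA mice and 8.01, 10.5, 6.12 and 5.81 in Herb mice. OVA lay below both other groups, which overlapped. Adamts1 fell in OVA vs. Saline (-1.25, SE 0.24, adjusted p = 0.00165 in limma) and rose in Herb vs. OVA by 0.99 (SE 0.22, adjusted p = 0.00968 in limma). Neither call held after rescaling, where the values were -0.28 (limma adjusted p = 0.311) and 0.44 (limma adjusted p = 0.185).

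Counted over the set, 5 of the 7 genes tested passed in OVA vs. Saline, with 1 higher and 4 lower, against 61.2% of all genes (3.28% higher and 57.9% lower). The OVA libraries lay wholly below the Saline libraries in 4 of the 7, against 63% of all genes. After rescaling 4 passed, Timp1 higher and Mmp3, Timp2 and Timp3 lower, against 41.2% of all genes (24.1% higher and 17.2% lower). In Herb vs. OVA 4 of 7 passed, all higher in Herb, against 44.5% of all genes (44% higher and 0.446% lower). Herb lay wholly above OVA in 2 of the 7 (Timp2 and Adamts1), against 49.6% of all genes. After rescaling none of the 7 passed in limma, against 0.803% of all genes, and 2 of the 7 (Timp2 and Adamts1) had an unadjusted p under 0.05, as did 3007 of all 11205 genes. In Herb vs. Saline Timp1 was higher and Mmp3 lower, 2 of 7, against 26.1% of all genes (3.32% higher and 22.7% lower), and Herb lay wholly above Saline for Timp1 and wholly below it for Mmp3 and Timp2, against 6.94% and 36.6% of all genes. After rescaling Timp1 alone passed, against 15.7%. Over single rows, 4, 3 and 1 of the 7 rows tested passed in the 3 comparisons, against 44.2%, 32.4% and 8.09% of all rows. In the values as deposited the shares called in the set were near those of all genes in all 3 comparisons. OVA vs. Saline and Herb vs. OVA share the OVA libraries, so a low value in OVA enters both.

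The shares of the inhibitors in their summed FPKM, which do not depend on the scale of a library, differed between the groups. The summed FPKM of the 3 TIMPs of the set was 126 to 242 in Saline, 14.6 to 44.4 in OVA and 49.8 to 125 in Herb. Timp1 made up 0.112% to 0.315% of it in Saline, 3.73% to 25.0% in OVA and 1.299% to 9.97% in Herb, so that Saline did not overlap either other group. Timp3 made up 67.3% to 76.6% in Saline, 41.5% to 62.9% in OVA and 36.9% to 70.2% in Herb. The TIMP sum was 7.04 to 10.7 times the sum of the 5 MMPs in Saline and 3.01 to 5.31 times in OVA, and Herb covered both, with 2.54 to 12.9 times. With the adjacent models these ratios were 7.03 to 11.1, 2.24 to 5.07 and 2.75 to 6.50, and Saline no longer overlapped Herb. Sums and shares are given as descriptions.

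Ratios of 2 genes within a library were tested for 3 pairs in 3 comparisons, 9 tests, and another pair, Mmp14 to Timp2, had values in 2 libraries only and was not tested. The log2 ratio of Mmp3 to Timp1 was 3.58, 5.02 and 4.18 in Saline, 0.085, -1.93 and -4.99 in OVA and 0.676, 0.528, -1.79 and -3.25 in Herb. Mmp3 exceeded Timp1 in all Saline libraries and in 1 OVA and 2 Herb libraries. The difference was -6.54 in OVA vs. Saline (two-sided exact permutation test, p = 0.1, adjusted p = 0.225) and -5.22 in Herb vs. Saline (exact permutation test, p = 0.0571, adjusted p = 0.225), with no overlap in either, and 1.32 in Herb vs. OVA (exact permutation test, p = 0.457). The log2 ratio of Timp1 to Timp3 averaged -8.65 ± 0.75 for Saline (n = 3, SD), -2.72 ± 1.76 for OVA (n = 3, SD) and -4.06 ± 1.81 for Herb (n = 4, SD), a difference of 5.93 in OVA vs. Saline (exact permutation test, p = 0.1) and of 4.59 in Herb vs. Saline (exact permutation test, p = 0.0571). These p-values are the smallest that 3 against 3 and 4 against 3 libraries allow, so none of the 9 could reach 0.05. Mmp2 to Timp2 could be formed in 2 Saline, 2 OVA and 3 Herb libraries only. With the adjacent models it was 1.14 higher in OVA than in Saline (exact permutation test, p = 0.1) and 0.67 lower in Herb than in OVA (exact permutation test, p = 0.0571), again the smallest possible values.

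**Figure D4:**
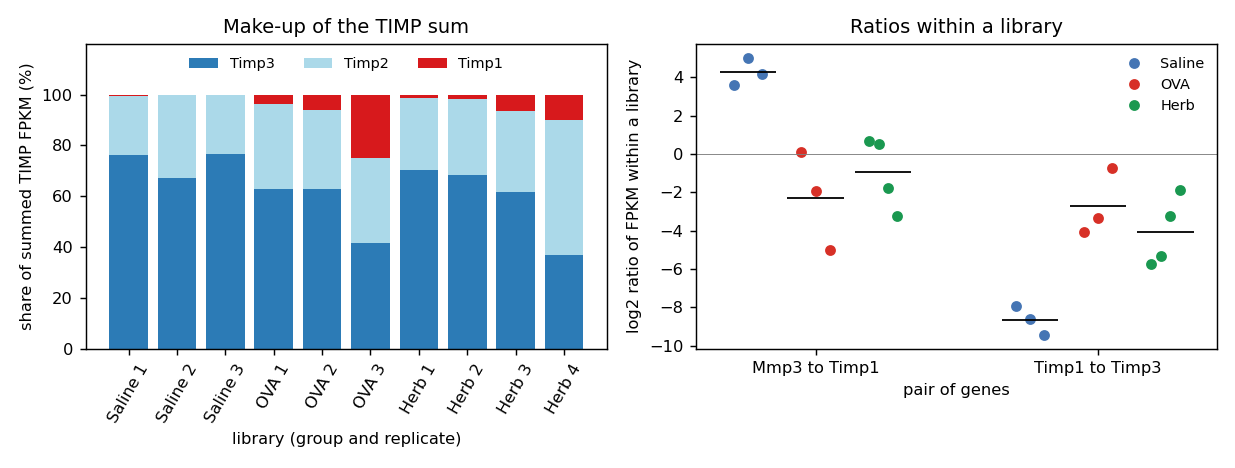
Left, share of Timp1, Timp2 and Timp3 in their summed FPKM (%) on the y axis for each library. Right, log2 ratios of 2 genes within a library, with 1 point per library and a line at the group mean. Timp1 is at 0.315% or less in Saline and reaches 25.0% in OVA 3, and the Saline points of both ratios are apart from all OVA and Herb points.

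Other proteinases of the same families were examined from lists of genes. Of 18 other MMPs, 5 had a mean of at least 1 FPKM. Mmp12, the macrophage elastase, had 0, 0.0185 and 0 FPKM in Saline mice, 1.40, 2.50 and 3.23 in OVA mice and 4.48, 2.13, 15.7 and 16.6 in Herb mice. It rose in OVA vs. Saline (limma adjusted p = 0.0334) and in Herb vs. Saline (limma adjusted p = 0.0101). Since all Saline libraries were at or under 3 fragments, the OVA mean was at least 53.3-fold and the Herb mean at least 218-fold higher than the mean of the per-library value of 3 fragments in Saline. The difference of Mmp12 in Herb vs. OVA was 1.36 (SE 0.56, adjusted p = 0.0765 in limma). Mmp8 and Mmp9, which neutrophils carry, fell in OVA vs. Saline with -2.06 (SE 0.58, adjusted p = 0.0118 in limma) and -0.97 (SE 0.24, adjusted p = 0.00664 in limma), and neither passed after rescaling. Mmp15, a membrane-bound MMP, fell by 0.44 on the log2 scale (limma adjusted p = 0.0247) but rose by 0.63 after rescaling (limma adjusted p = 0.0033). Mmp28 had 1.92, 0 and 3.71 FPKM in Saline mice and 0.0465, 0 and 0.0315 in OVA mice, and it passed in no comparison. In Herb vs. OVA, Mmp9 and Mmp15 rose, by 0.79 and 0.44, and neither passed after rescaling, where Mmp15 was at -0.19. The median of the 5 was -0.97 in OVA vs. Saline beside -0.75 over all genes tested.

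Of 10 other ADAMs tested, 1 rose and 3 fell in OVA vs. Saline, with a median of -0.24, against 3.28% higher and 57.9% lower among all genes. After rescaling 2 were higher and 1 lower, against 24.1% and 17.2% of all genes. The one that rose was Adam8, a proteinase of leukocytes, from a Saline mean of 1.80 ± 0.51 FPKM (n = 3, SD) to an OVA mean of 13.3 ± 10.1 FPKM (n = 3, SD), and Herb mice ranged from 6.74 to 17.8 FPKM. Its log2 fold change in OVA vs. Saline was 2.102 (SE 0.52, adjusted p = 0.00616 in limma). Adam10, Adam17 and Adam23 fell by 1.84, 1.15 and 0.51 on the log2 scale, and of these Adam10, a sheddase of many membrane proteins, passed after rescaling (-0.78, limma adjusted p = 0.00631). All 3 rose in Herb vs. OVA, by 1.02, 0.79 and 0.59, and none of them passed after rescaling. In Herb vs. Saline Adam8 rose by 2.14 (SE 0.48, adjusted p = 0.0161 in limma) and Adam10 fell by 0.82 on the log2 scale (limma adjusted p = 0.0254), and the call of Adam10 was lost after rescaling (limma adjusted p = 0.138). Of 6 other ADAMTS genes tested, 3 fell in OVA vs. Saline, against 57.9% of all genes. These were Adamts15, Adamts5 and Adamts8, at -1.31, -1.13 and -0.51, and none of the 3 passed after rescaling. Adamts15 and Adamts8 rose in Herb vs. OVA, by 1.16 and 0.61, and neither passed after rescaling. Adamts5 was lower in Herb than in Saline (-0.67, limma adjusted p = 0.0218), a call lost after rescaling (limma adjusted p = 0.184).

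Genes that activate, inhibit or clear MMPs fell in OVA vs. Saline in 8 of the 11 tested, with a median of -1.60 and with none higher, against 57.9% of all genes, and in 5 of the 11 after rescaling, against 17.2%. Reck, a membrane-anchored inhibitor of MMPs, went from a Saline mean of 12.3 ± 0.77 FPKM (n = 3, SD) to an OVA mean of 2.15 ± 0.81 FPKM (n = 3, SD), a log2 fold change of -2.11 (SE 0.28, adjusted p = 0.000237 in limma). Plat, tissue plasminogen activator, fell by 2.18 on the log2 scale (limma adjusted p = 0.00157) and Thbs1, thrombospondin 1, by 1.89 (limma adjusted p = 0.000222). All 3 also passed after rescaling. From OVA to Herb 8 of the 11 rose, against 44% of all genes, among them Plat, Serpine2 and Plaur, by 1.23, 1.13 and 1.06, and none passed after rescaling. In Herb vs. Saline 4 of the 11 fell, against 22.7% of all genes. Reck and Thbs1 were among them, at -1.11 and -1.04, and neither passed after rescaling. Another of the 4 was still lower then, the only 1 of the 11 that passed, against 15.7% of all genes.

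Among 27 matrix genes tested that are substrates of these proteinases, 10 fell and none rose in OVA vs. Saline, against 57.9% and 3.28% of all genes. Their median was -0.79, which is near the -0.75 of all genes. After rescaling 8 were higher and 7 lower, against 24.1% and 17.2% of all genes. Ogn, osteoglycin, fell from a Saline mean of 151 ± 32.7 FPKM (n = 3, SD) to an OVA mean of 7.92 ± 5.57 FPKM (n = 3, SD), with a log2 fold change of -4.27 (SE 0.54, adjusted p = 0.000209 in limma). Dcn, decorin, followed with -3.53 (SE 0.60, adjusted p = 0.000851 in limma). Col1a2, a chain of type I collagen, was listed at 0 in all OVA libraries, at 0.546 to 22.0 FPKM in Saline and at 19.9 to 44.5 FPKM in Herb. Its fall is among the 10, but an exact 0 can be a failed estimate, so nothing is read from these zeros. Col1a1, which encodes the other chain, gave 0.41 in OVA vs. Saline (limma adjusted p = 0.334). After rescaling Col1a1 was at 1.49 (limma adjusted p = 0.00997). From OVA to Herb 8 of the 27 rose and 1 fell, against 44% and 0.446% of all genes. Col1a2, with its zeros in OVA, was among the rises. Ogn was at 1.96 and Fn1, fibronectin, at 1.43, and Lama4 fell by 1.86 on the log2 scale. None of these 3 passed after rescaling, when Col1a2 alone of the 27 was higher and none lower. In Herb vs. Saline 5 rose and 7 fell, against 3.32% and 22.7% of all genes. The rises were led by Col3a1 (1.67, SE 0.39, adjusted p = 0.0174 in limma), Eln, elastin (1.43), and Col6a2 (1.33). The falls were led by Dcn (-2.45), Ogn (-2.31) and Nid1 (-1.98), of which Nid1 lost its call after rescaling (limma adjusted p = 0.0536).

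Levels of cell type markers are given beside those of the set. Fibroblast markers summed to 593 to 659 FPKM in Saline, 30.4 to 125 FPKM in OVA and 116 to 352 FPKM in Herb, and 6 of the 11 tested fell in OVA vs. Saline, against 57.9% of all genes. After rescaling 3 fell and 1 rose, against 17.2% and 24.1% of all genes. The largest falls were those of Inmt (-4.02), Dpt (-2.85) and Pdgfra (-2.29). Inmt alone was at 464 to 507 FPKM in Saline and at 7.91 to 69.7 FPKM in OVA, so 1 gene made up most of the Saline sum. In Herb vs. OVA 6 of the 11 rose, with Dpt at 1.62, Pdgfra at 1.31 and Clec3b at 1.26, against 44% of all genes, and none of the 11 passed after rescaling. The sums were also lowest in OVA for endothelial markers (478 to 590, 122.0 to 201 and 261 to 472 FPKM in Saline, OVA and Herb) and mesothelial markers (41.5 to 46.9, 13.2 to 24.1 and 20.03 to 34.2 FPKM). Divided by the 75th percentile of the library, the endothelial and mesothelial sums overlapped between Saline and OVA. Of 10 endothelial markers tested, however, 7 fell in OVA vs. Saline, against 57.9% of all genes. After rescaling 4 of them still fell and 0 rose, against 17.2% and 24.1% of all genes. The fibroblast sum did not overlap, at 64.4 to 71.0 in Saline and 7.28 to 27.2 in OVA. Nor did the alveolar sum, at 402 to 516 in Saline and 97.0 to 182 in OVA, or the macrophage and eosinophil sums, all lower in OVA. Smooth muscle and pericyte markers were at 73.9 to 81.4, 48.2 to 66.4 and 59.7 to 95.1 FPKM. Of the 11 tested, 4 fell in OVA vs. Saline, against 57.9% of all genes. After rescaling 7 of the 11 rose and none fell, against 24.1% and 17.2% of all genes. Divided by the 75th percentile of the library, their sum was 8.03 to 8.76 in Saline, 11.5 to 15.4 in OVA and 10.3 to 14.6 in Herb. Of 10 macrophage markers tested, 1 rose and 3 fell in OVA vs. Saline, against 3.28% and 57.9% of all genes. The 3 were Lyz2, Cd68 and Siglecf, and the call of Cd68 was lost after rescaling. Then 4 of the 10 were higher and 2 lower, against 24.1% and 17.2% of all genes. Chil3 and C1qa rose in both Herb vs. OVA and Herb vs. Saline, and after rescaling they passed in OVA vs. Saline and Herb vs. Saline but not in Herb vs. OVA. Neutrophil markers summed to 44.4 to 491 FPKM in Saline, 10.5 to 38.8 FPKM in OVA and 46.6 to 140 FPKM in Herb, where Mmp8 and Mmp9 belong to the list. In lavage fluid the study counted more neutrophils and macrophages in OVA mice than in saline mice. It counted fewer inflammatory cells with DSE than without it. The neutrophil and macrophage markers are thus not read as cell numbers. Eosinophil markers summed to 24.4 to 48.4, 4.76 to 10.3 and 10.1 to 14.6 FPKM. Some markers were listed at 0 in all libraries of a group. These were the macrophage marker Csf1r in OVA and in Herb, the eosinophil markers Prg2 in Saline and Ear6 in Saline and in Herb, and the alveolar marker Rtkn2 in Herb. The part of cell numbers in the changes of the proteinases and inhibitors was not tested.

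Timp3 and Mmp2 were the TIMP and the MMP of the set with the highest means over all 10 libraries. The genes whose levels were most like theirs were sought among 3954 symbols with a mean of at least 5 FPKM. This was done after rescaling, over 10 libraries that fall into 3 groups. Timp3 was most like Foxf1, a transcription factor of lung mesenchyme, with a Pearson r of 0.973, followed by Spon1 (r = 0.963), Fzd4 (r = 0.962), Efnb2 (r = 0.962) and Pcolce2 (r = 0.961). Mmp2, with its 3 zeros, was most like Gstt1 (r = 0.817), Ilf2 (r = 0.775), Aplnr (r = 0.749), Zfp664 (r = 0.736) and Lpgat1 (r = 0.733). These values are the highest of many and are given without a test.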

How the data were processed

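Lung RNA of 10 mice was sequenced as paired-end libraries. The labels name a TruSeq RNA kit and the study's methods a stranded mRNA kit, and whether strand was used in counting was not given in the sources used here. The authors trimmed the reads (cutadapt 1.10), aligned them to mm10 (HISAT2), assembled transcripts (StringTie 1.3.3b), and deposited 1 table of FPKM read out with ballgown. The submitters' processing notes also name edgeR 3.16.5. FPKM divides the fragments of a library among all its transcripts, so a class of RNA that takes up more fragments lowers all other values.

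Here the rows of a symbol were summed (rows without a symbol were left out of the gene fit) and tested with limma 3.58.1 in R 4.3.3 (lmFit, eBayes with trend) on log2(FPKM + 1), pseudocount 1, over the 11205 symbols whose mean reached 1 FPKM. The fit held 3 group means for all 10 libraries, with Benjamini-Hochberg adjustment over all symbols. The same fit was run on 30194 single rows. Tests on simulated data with known changes were part of the procedure. Alternatives were pseudocounts, filters, rescaling, quantile normalization, only the 2 groups compared, the row with the highest mean, a replicate block and leaving out each library. Adding adjacent assembled models was chosen after seeing the data. Depth was estimated from the steps of the lowest FPKM values, and the value of 3 fragments from depth and transcript length (GENCODE vM21). Python 3.11.15 with scipy 1.17.1 gave two-sided exact permutation tests. The labels do not state cages or batches, so p-values measure the spread between these libraries, which may be in part technical.

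The members, the lists and the tests were chosen with earlier results of these data known. Genes named are all members, for each list and comparison those with the largest changes among calls (up to 3 in each direction), every other MMP whose mean reached 1 FPKM, and the 5 symbols most like Timp3 and Mmp2. Some genes that this rule would name are not reported here. Genes named outside this rule were Sftpc, Col1a1, Syn1, Syn3, Tmem198b and Gapdh, for a check or an overlap, and the markers listed at 0 throughout a group or moved alike in 2 comparisons, chosen after their values were seen.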

Additional observations from a re-analysis of the deposited data

Results flagged for a closer look

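Of 12 sets of 4 Herb values examined for a single value far from the rest, 1 was singled out: Mmp14 at 0.113 FPKM in Herb replicate 2, where the other 3 Herb libraries list it at 0. Chance flags about 1 in 20 sets of continuous values. Beside 3 values of exactly 0, any value above 0 is apart by the whole range, so that rate does not apply to this flag. Gapdh is likewise listed above 0 in the same Herb library only. Values this low rest on few fragments.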

How the results depend on the processing

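Rescaling to the 75th percentile removed all 4 member calls of Herb vs. OVA. Of 483 member fold changes recomputed under an alternative, 385 kept their direction and their side of the threshold, 67 lost a call, 6 gained one and 25 turned direction. The cause was not tested. In the main fit limma called 5, 4 and 2 members, 6853, 4982 and 2921 genes and 4, 3 and 1 single rows in OVA vs. Saline, Herb vs. OVA and Herb vs. Saline. After rescaling to the 75th percentile, members called were 0 in Herb vs. OVA and 1 in Herb vs. Saline, genes called 90 and 1758, and rows called 0 and 0. The difference of Timp1 in Herb vs. OVA became -0.151, and those of Mmp2 and Adamts1 in Herb vs. Saline became 0.291 and 0.164. With the adjacent models as well, these were 0 and 1 members, 90 and 1760 genes, -0.151, 0.103 and 0.164. With a common sum of protein-coding FPKM, members called were 0 in Herb vs. OVA and 1 in Herb vs. Saline, genes called in Herb vs. OVA were 593, and rows called were 2, 0 and 0 in the order above. Directions turned for Mmp2 (0.064) and Adamts1 (0.049) in OVA vs. Saline, Timp1 (-0.281) in Herb vs. OVA, and Mmp2 (0.385) and Adamts1 (0.338) in Herb vs. Saline. With quantile normalization, members called were 3, 0 and 0, genes called 4004, 157 and 841, and rows called 2, 0 and 0. Timp1 was then at -0.16 in Herb vs. OVA, and Mmp2, Timp2 and Adamts1 at 0.338, 0.035 and 0.156 in Herb vs. Saline.

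Without a filter, or with only the groups compared in the fit, members called in Herb vs. OVA were 2 and rows called in Herb vs. Saline 0. With a pseudocount of 0.1, Herb vs. Saline gave 1 member, 0 rows and 0.224 for Mmp2. With the row of the highest mean, Herb vs. Saline gave 1 member, and Timp1 in Herb vs. OVA was -0.023. Leaving out each library in turn gave 4 to 5, 2 to 4 and 0 to 2 members, 6118 to 6839, 3221 to 5070 and 894 to 3254 genes, and 4 to 5, 0 to 3 and 0 to 1 rows. Directions turned for Mmp2, whose range was -2.174 to 0.007 in OVA vs. Saline and -0.027 to 1.712 in Herb vs. OVA (both turned without OVA replicate 3) and -1.327 to 0.845 in Herb vs. Saline (turned without Saline replicate 1, at 0.836, Saline replicate 3, at 0.432, or Herb replicate 1). In Herb vs. OVA, Timp1 ranged from -0.128 (without OVA replicate 1) to 0.592, its row NM_011593 from -0.524 to 0.304 (without Herb replicate 1 or 3), and the ratio of Mmp3 to Timp1 from -0.037 (without OVA replicate 3) to 2.499.

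The replicate numbers did not pair the mice: deviations of same-numbered libraries correlated with r from -0.009 to 0.095. A replicate block, in which Herb replicate 4 has no partner and adds nothing, called 1 member and 1342 genes in Herb vs. Saline. With the block and the 75th percentile, genes called were 4312, 5 and 592, members called 0 in Herb vs. OVA and 1 in Herb vs. Saline, rows called 0 and 0, Timp1 in Herb vs. OVA -0.374 and Adamts1 in Herb vs. Saline 0.255. Depth limits Timp1, which at 0.217 and 0.241 FPKM in Saline replicates 2 and 3 lies near the values of 3 fragments, 0.157 and 0.163 FPKM. Mmp14 in Herb replicate 2, at 0.113 FPKM, is also near its value of 0.0776 FPKM. Elsewhere Mmp11 and Mmp14 were at or under that value only where they are listed at 0, which can be a failed estimate.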
